A study of Drosophila melanogaster with 38 samples.

Results

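Among the MSL2 peaks that the submitters listed outside the high-affinity sites of Drosophila melanogaster, 1669 lie on chromosomes 2, 3 and 4, and 559 of these are located away from promoters. A peak was counted as away from promoters when its midpoint lay more than 500 bp from every annotated transcription start site (TSS) of any gene. The other 1110 peaks have their midpoint within that distance and are called promoter peaks here. All 3 deposited lists together hold 2524 distinct intervals. They come from a chromatin immunoprecipitation sequencing series of 38 libraries from third-instar larvae, 19 of each sex, with 1 library per group and therefore no replicates. MSL2 was precipitated through its tag in larvae that carried the mutant alleles msl-2227 and msl-2km. These larvae made a FLAG fusion of the protein from the transgene UAS-msl-2::3Flag under the driver tub-Gal4, in females as well as in males. The control for the FLAG antibody, again in both sexes, made no tagged protein (genotype msl-2227/km over CyO-GFP, with wild-type chromosomes in place of driver and transgene). In every library, chromatin came from the front part of dissected larvae. The lists name no library, so no value below separates males from females, and the sequencing depth behind a peak is unknown.

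MSL2 is the subunit of the male-specific lethal (MSL) complex that is made in males only, and it gives the complex its ability to recognize DNA. The complex acetylates lysine 16 of histone H4 on the single male X chromosome and raises its transcription, a process called dosage compensation. It enters the X at high-affinity sites (HAS), which hold a GA-rich sequence known as the MSL recognition element, and spreads from there over active genes. The GA-binding zinc-finger protein CLAMP helps it find these sites. Outside X, MSL2 also binds autosomal sites. In the lists used here, 1669 peaks outside the HAS list lie on chromosomes 2, 3 and 4, against 680 on X.

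The sequences that recur in and beside these peaks are runs of GA (TC on the other strand) and of CA (TG on the other strand). Runs were looked for in the 500 bp around each midpoint, which for most peaks is wider than the peak itself. Some of the longest unbroken runs are printed with up to 20 bp on either side. They read 5′ to 3′ on the plus strand of dm6, with the run in capitals. Only the runs at InR and CG43245 lie wholly inside the peak interval, and the run at mIF2 touches its edge. The rest lie beside it. The first 5 are GA runs, and the other 4 are CA runs:
lncRNA:CR45054, intron, chr3R:10087270-10087334: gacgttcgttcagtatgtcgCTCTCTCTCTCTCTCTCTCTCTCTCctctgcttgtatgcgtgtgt
Nuak, intron, chr3R:10267297-10267357: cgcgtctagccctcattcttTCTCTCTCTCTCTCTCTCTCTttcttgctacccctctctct
InR, intron, chr3R:21605617-21605677: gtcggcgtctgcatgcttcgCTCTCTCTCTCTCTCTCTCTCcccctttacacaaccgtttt
Eip74EF, intron, chr3L:17563772-17563831: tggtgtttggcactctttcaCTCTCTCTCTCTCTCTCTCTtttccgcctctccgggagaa
CG43245, intergenic, chr3L:10739648-10739706: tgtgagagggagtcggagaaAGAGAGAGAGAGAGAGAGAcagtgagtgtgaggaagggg
Eip78C, intron, chr3L:21252507-21252574: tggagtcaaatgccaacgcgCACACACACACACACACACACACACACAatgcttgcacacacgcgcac
mIF2, intergenic, chr3R:28547437-28547504: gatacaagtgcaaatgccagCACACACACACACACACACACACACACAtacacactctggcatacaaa
CenG1A, intron, chr2L:13837506-13837555: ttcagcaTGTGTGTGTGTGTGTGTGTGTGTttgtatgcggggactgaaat
Unc-115a, intron, chr3R:9704852-9704913: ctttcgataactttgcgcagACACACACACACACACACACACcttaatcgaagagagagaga

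Among these genes, InR encodes the insulin receptor, Eip74EF an ETS-domain transcription factor induced by ecdysone, Eip78C a nuclear receptor, Nuak a protein kinase and mIF2 a mitochondrial translation initiation factor. The printed runs are 19 to 25 bp long for GA and 22 to 28 bp for CA. Of the 8 longest GA runs these are 5. The other 3, in introns of ITP and CG4622 (29 bp, the longest), Tab2 (20 bp) and cv-2 (20 bp), are on a chromosome arm of which no sequence is printed. Runs of this length were rare. In the 500 bp around the midpoint, 7 of the 559 peaks (1.25%) held a GA run of at least 20 bp, compared with 1 of 869 control windows 2 kb away (0.115%). A CA run of that length was held by 9 peaks (1.61%) and by 9 control windows (1.04%), shares whose Wilson intervals overlap. The common form was a shorter or interrupted repeat. Whole peaks show this better. Of the 11 genes with 5 or more peaks, 6 are on arms of which sequence is printed. Here a repeat counted only inside the peak itself, not elsewhere in the 500 bp window. By this rule 5 of the 6, all but tara, had a peak of up to 300 bp outside exons with both repeats. The narrowest such peak of each is printed in full, with every match to GAGAGAGA or CACACACA, on either strand and with up to 1 mismatch, in capitals:
Eip74EF, chr3L:17570206-17570456: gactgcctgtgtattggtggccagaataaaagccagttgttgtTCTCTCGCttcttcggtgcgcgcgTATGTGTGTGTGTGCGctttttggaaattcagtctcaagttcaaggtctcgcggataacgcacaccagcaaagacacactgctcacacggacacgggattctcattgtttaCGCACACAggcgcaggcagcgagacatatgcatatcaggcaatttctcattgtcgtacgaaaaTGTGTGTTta
InR, chr3R:21606759-21606988: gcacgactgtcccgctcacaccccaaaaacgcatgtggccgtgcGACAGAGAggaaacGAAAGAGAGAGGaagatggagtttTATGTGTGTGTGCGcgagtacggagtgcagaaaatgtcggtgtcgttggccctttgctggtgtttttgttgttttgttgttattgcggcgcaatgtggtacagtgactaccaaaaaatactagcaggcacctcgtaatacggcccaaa
osa, chr3R:17714977-17715136: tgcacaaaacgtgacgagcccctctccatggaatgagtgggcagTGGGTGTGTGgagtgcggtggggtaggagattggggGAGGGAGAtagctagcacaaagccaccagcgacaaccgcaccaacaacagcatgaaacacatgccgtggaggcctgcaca
Eip75B, chr3L:17968536-17968685: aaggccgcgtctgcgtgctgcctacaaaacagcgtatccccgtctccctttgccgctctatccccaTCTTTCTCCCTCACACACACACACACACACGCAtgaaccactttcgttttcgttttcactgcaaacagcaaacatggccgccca
CG3764, chr3L:17011037-17011187: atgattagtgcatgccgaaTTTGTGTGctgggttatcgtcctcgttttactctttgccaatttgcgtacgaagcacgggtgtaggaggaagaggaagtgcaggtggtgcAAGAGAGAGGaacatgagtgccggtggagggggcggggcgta

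The arrangement of the repeats differed between these peaks, which were chosen for holding both. In the InR peak, as printed on the plus strand, both GA stretches lie to the left of a TG run. In the Eip75B peak the TC and CA matches run into each other, while in the CG3764 peak the matches to the 2 repeats are far apart. At most 40 bases of a printed peak are in capitals, out of 251 in the Eip74EF peak.

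Where in genes are these peaks located? The midpoint fell in an intron for 344 of the 559 peaks (61.5%; 95% Wilson interval 57.4 to 65.5), and between genes for 144 (25.8%; 22.3 to 29.5). Coding exons held 28 peaks (5.01%; 3.49 to 7.14), 5′ untranslated regions (UTRs) 22, exons of noncoding RNAs 13 and 3′ UTRs 8. For comparison, introns make up 44.9% of the autosomal sequence that lies beyond 500 bp of a TSS, intergenic sequence 32.7%, coding exons 15.2% and 3′ UTRs 5.50%. The share of peaks was thus above the share of sequence for introns, 5′ UTRs (3.94% of peaks against 0.857% of sequence) and noncoding exons (2.33% against 0.954%), and below it for coding exons, 3′ UTRs and intergenic sequence. Each peak was counted as independent, and the intervals cover counting error only. The shares of sequence count all assembled bases beyond that distance, whether or not reads can be placed there.

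The peaks on X that were not HAS, taken by the same distance rule, gave 227 for comparison. Autosomal peaks were more often intergenic than these, 25.8% against 11.9%, a difference of 13.9 percentage points (two-sided Fisher's exact test with adjusted p = 2.09e-05 over 6 gene parts). Intergenic sequence is 25.6% of the X sequence beyond 500 bp of a TSS. Autosomal peaks were less often in coding exons, 5.01% against 15.9% (adjusted exact p = 1.23e-05), and less often in 3′ UTRs, 1.43% against 8.37% (adjusted exact p = 1.98e-05). The shares in introns differed by 4.71 points (adjusted exact p = 0.274), those in 5′ UTRs by 1.29 points (adjusted exact p = 0.524) and those in noncoding exons by -2.08 points (adjusted exact p = 0.238), none of which passed the test. On X, coding exons are 15.2% and 3′ UTRs 7.54% of that sequence, close to the shares of X peaks in them. Both lists are the submitters' own division of the peaks.

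**Figure D1:**
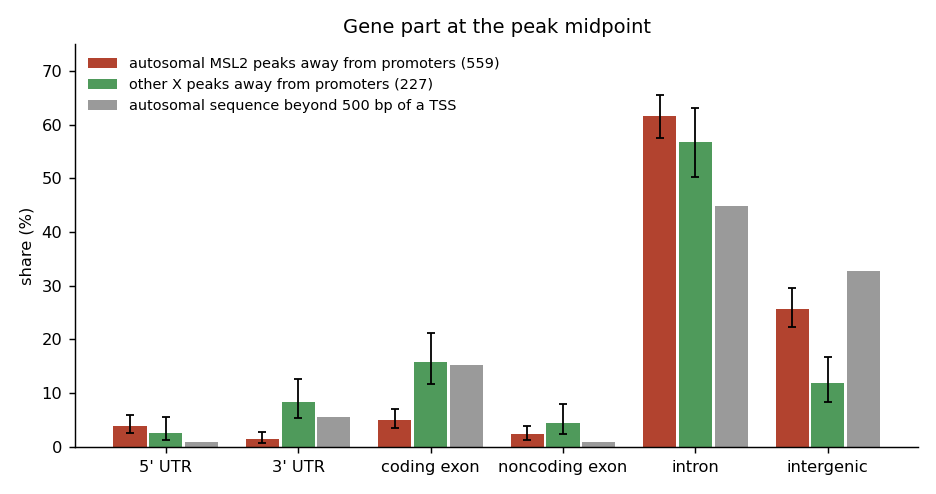
Share (%) of peak midpoints in each gene part for the 559 autosomal MSL2 peaks away from promoters and the 227 other X peaks away from promoters (bars with 95% Wilson intervals), and share of autosomal sequence beyond 500 bp of a TSS (grey, no error). Introns hold 61.5% of the autosomal peaks and coding exons 5.01%, against 15.9% of the X peaks in coding exons.

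The intronic peaks favoured first introns. Of the 344, 239 (69.5%; Wilson interval 64.4 to 74.1) lay in an intron that is the first one of at least 1 transcript, whereas such introns make up 42.3% of the intronic sequence beyond 500 bp of a TSS. Only 41 peaks (11.9%) lay in an intron numbered 3 or higher in every transcript. The introns had a median length of 11629 bp, and 197 peaks (57.3%) were in introns of more than 10 kb. Such introns make up 64.1% of the intronic sequence beyond 500 bp of a TSS, so long introns held no more peaks than their share of sequence. First introns of fly genes are known as places where enhancers are common. A first intron can also lie far inside a gene, as for an Eip74EF peak 49.0 kb from the first TSS. Position along the gene was not measured for the peaks as a whole. Distances from the nearest TSS ran from 502.5 bp to 96970 bp, with a median of 2288 bp and quartiles of 950.5 and 5289 bp. More than 5 kb separated 151 peaks from any TSS, more than 10 kb 62 peaks and more than 20 kb 13 peaks.

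Since the limit of 500 bp cuts a continuous range, the peaks closest to it were similar in position. Just inside the promoter class were peaks at CG17544 (488 bp from a TSS), Doa (494.5 bp) and Pcyt1 (498.5 bp). Just outside it were peaks at lectin-28C (502.5 bp), lbk (503 bp) and pum (504 bp), the last of which encodes the translational repressor Pumilio.

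To ask which sequences the peaks hold, 9 words were looked for on both strands in the 500 bp around each midpoint. As a control, windows of the same length were taken 2 kb to either side, where they touched no peak and were themselves more than 500 bp from a TSS (869 flanks). The GA repeat (GAGAGAGA with up to 1 mismatch) was present in 323 of 559 peaks (57.8%; 53.6 to 61.8) and in 28.7% of flanks (two-sided Fisher's exact test with adjusted p = 1.93e-26 over 27 word tests). The CA repeat (CACACACA with up to 1 mismatch) was present in 391 peaks (69.9%; 66.0 to 73.6) and in 44.8% of flanks (adjusted exact p = 9.75e-20). With 0 mismatches allowed, the difference in the GA repeat was 10.9 points in place of 29.1 (adjusted exact p = 2.14e-11). Both repeats occurred together in 242 peaks (43.3%) and in 15.1% of flanks, while 87 peaks (15.6%) and 41.7% of flanks held neither. Words of the same bases in another order did not differ this way. GGAAGGAA was present in 31.1% of peaks and 29.0% of flanks (adjusted exact p = 0.646), and CCAACCAA in 36.3% and 38.6% (adjusted exact p = 0.646). Unbroken runs of at least 8 bp gave the same order, with GA runs in 19.3% of peaks and 5.06% of flanks, and CA runs in 36.9% and 11.7%.

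Peaks away from promoters held these repeats more often than the promoter peaks of the same list. The GA repeat was found in 44.2% of promoter peaks, 13.5 points fewer (adjusted exact p = 1.82e-06), and the CA repeat in 62.6%, 7.33 points fewer (adjusted exact p = 0.0127). The difference in the GA repeat was smaller with 0 mismatches (4.85 points, adjusted exact p = 0.0216) and in windows of 200 bp (7.48 points, adjusted exact p = 0.00991). The difference in the CA repeat was no longer past the threshold when the limit for promoters was set to 1000 bp (4.07 points, adjusted exact p = 0.505) or when 1 peak was kept per 10 kb (5.75 points, adjusted exact p = 0.157). The control word GGAAGGAA was also more frequent away from promoters, 31.1% against 24.1% (adjusted exact p = 0.0122), or by 4.13 points in windows of 200 bp (adjusted exact p = 0.0457). That difference missed the threshold with 0 mismatches (1.60 points, adjusted exact p = 0.0738), with the 1000 bp limit (5.09 points, adjusted exact p = 0.199) and with 1 peak per 10 kb (4.49 points, adjusted exact p = 0.251). Against X peaks away from promoters, where the GA repeat was in 50.2% and the CA repeat in 65.6%, neither repeat differed beyond counting error (adjusted exact p = 0.172 and 0.525). The repeats were centred on the midpoint. In bins of 100 bp on the plus strand, the GA repeat was found in 23.9% of peaks in the bin centred 50 bp to the right of the midpoint and in 8.26% in the bin centred 950 bp to the left. The CA repeat was found in 30.2% and 12.4% of the same bins.

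**Figure D2:**
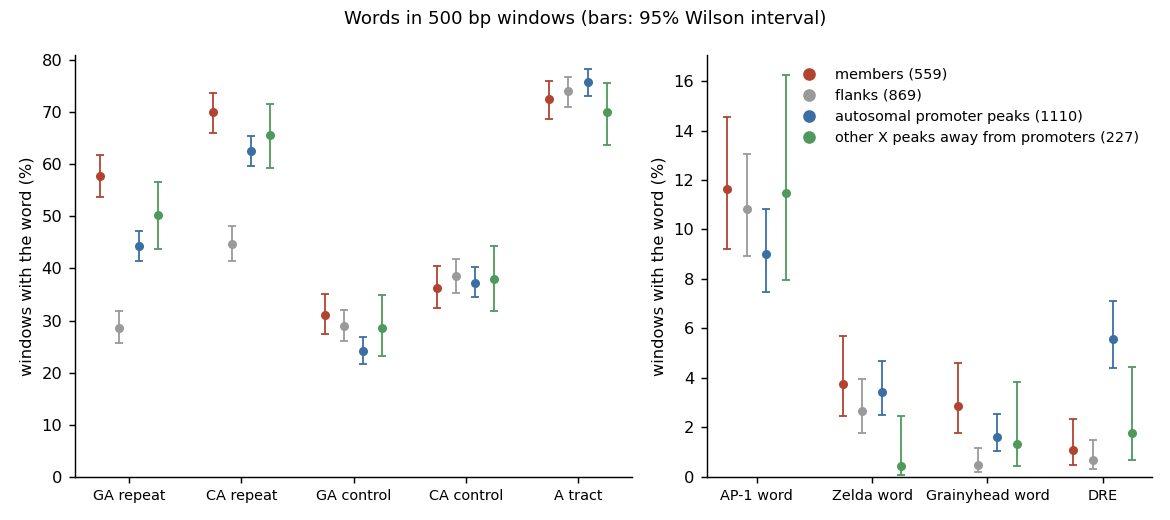
Share (%) of 500 bp windows that hold each word, for the 559 members, 869 flanks, 1110 autosomal promoter peaks and 227 other X peaks away from promoters (points, with 95% Wilson intervals). The GA repeat is in 57.8% of members and 28.7% of flanks, while the DRE is in 5.59% of promoter peaks and 1.07% of members.

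**Figure D3:**
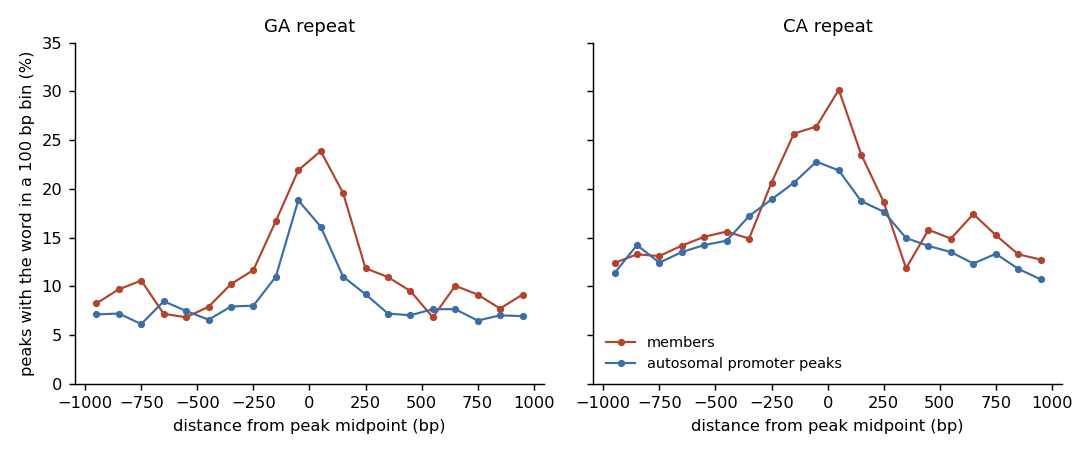
Share (%) of peaks with the GA repeat (left) and the CA repeat (right) in each 100 bp bin over 1 kb to either side of the midpoint (plus strand), for members and autosomal promoter peaks. Both repeats are highest at the midpoint in members, at 23.9% for GA and 30.2% for CA.

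The repeats were not spread evenly over gene parts. In introns, 60.8% of peaks held the GA repeat and 75.9% the CA repeat, and between genes 52.1% and 59.0%. Of the 28 peaks in coding exons, 9 held the GA repeat (32.1%; 17.9 to 50.7) and 10 the CA repeat (35.7%; 20.7 to 54.2). In 5′ UTRs the GA repeat was present in 16 of 22 peaks and the CA repeat in 20. These shares are given as a description, with no test between gene parts.

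Words of other factors were rarer. The DNA replication-related element (DRE, TATCGATA), the site of the promoter factor Dref, was present in 6 peaks (1.07%), against 62 of 1110 promoter peaks (5.59%, adjusted exact p = 1.60e-05) and 0.690% of flanks. TGANTCA, the site of AP-1 factors, was in 11.6% of peaks and 10.8% of flanks (adjusted exact p = 0.764), and a tract of A (AAAAAAAA with up to 1 mismatch) in 72.5% and 74.0% (adjusted exact p = 0.681). The difference in this tract was -14.2 points in windows of 200 bp (adjusted exact p = 9.82e-07) and 13.2 points in windows of 45 to 52% GC (adjusted exact p = 0.0126), so no direction is given for it. CAGGTAG, the site of the early-embryonic activator Zelda, was in 3.76% of peaks and 2.65% of flanks (adjusted exact p = 0.525). It was in 1 of 227 X peaks (0.441%, adjusted exact p = 0.0259), a difference that did not pass in windows of 200 bp (2.33 points in place of 3.32), with a limit of 1000 bp from TSSs (3.14 points), with 1 peak per 10 kb (3.51 points) or in windows of 45 to 52% GC (4.27 points).

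The palindrome AACCGGTT is bound by Grainyhead, a transcription factor of epithelial cells. It was present in the 500 bp windows of 16 peaks (2.86%; 1.77 to 4.60) and in 4 of 869 flanks (0.460%; adjusted exact p = 0.00140). Promoter peaks held it in 1.62% (adjusted exact p = 0.245 against members), and X peaks in 1.32%. Among windows of similar base content the difference from flanks was 1.93 points (adjusted exact p = 0.484, in 328 peaks and 178 flanks), and in windows of 200 bp it was 1.39 points in place of 2.40 (adjusted exact p = 0.0167). Of the 16 peaks, 11 were in introns. Examples, chosen after the sites were seen, are printed with the palindrome in capitals and 16 bp on either side, to show the bases around it:
vri, intron, chr2L:5297105-5297144: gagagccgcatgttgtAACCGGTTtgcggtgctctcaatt
Hr38, intron, chr2L:20701004-20701043: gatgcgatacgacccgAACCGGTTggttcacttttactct
lncRNA:CR44678, intergenic, chr3L:19683124-19683163: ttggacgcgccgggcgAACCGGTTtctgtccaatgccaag
CtBP, intron, chr3R:13016132-13016171: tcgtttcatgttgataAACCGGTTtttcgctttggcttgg
CG18135, intron, chr3L:18996853-18996892: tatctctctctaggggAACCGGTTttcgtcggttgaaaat
Syp, intron, chr3R:20784618-20784657: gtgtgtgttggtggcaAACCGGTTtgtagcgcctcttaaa

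In the CG18135 site a TC run, and in the Syp site a TG run, lies in the 16 bp before the palindrome. The CG18135 palindrome is 204 bp from the midpoint, inside the 500 bp window but outside the peak interval. The palindromes at CenG1A, en, chn and Exn, which are not printed, also lie outside the peak interval. Here vri encodes a bZIP repressor of the circadian clock, Hr38 a nuclear receptor and CtBP a corepressor. In the CtBP peak the palindrome sits on the midpoint itself (0 bp away). A search that allowed all 2080 words of 6 bp gave a broad difference from flanks. Of these words, 412 (19.8%) were more frequent in peaks and 482 (23.2%) less frequent (Fisher's exact test, Benjamini-Hochberg adjusted p under 0.05). At the top were CACACA, in 61.4% of peaks and 33.8% of flanks (adjusted exact p = 2.08e-21), GAGCGA, in 44.5% and 19.2% (adjusted exact p = 2.08e-21), and AGAGAG, in 46.5% and 20.9% (adjusted exact p = 2.83e-21). Of the 604 words with a CG step, 230 were more frequent and 6 less frequent, whereas of the 36 words made of A and T alone, 33 were less frequent and 0 more frequent.

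Base content moved with this result. The median GC content was 48.4% in peaks and 41.4% in flanks, with 46.8% in promoter peaks and 47.8% in X peaks. When both groups were restricted to windows of 45 to 52% GC (328 peaks and 178 flanks), 36 words were more frequent and 33 less frequent, and 30 and 18 of these were also among the words found in all windows. CACACA (63.1% of peaks, 35.4% of flanks, adjusted exact p = 3.27e-06), GAGCGA (47.6% and 24.2%, adjusted exact p = 1.18e-04) and AGAGAG (50.3% and 28.7%, adjusted exact p = 9.28e-04) were still among them. None of the words of A and T alone was less frequent in these windows, and 3 were more frequent, AAAAAT (59.5% and 41.6%, adjusted exact p = 0.0115), TAAAAA (50.3% and 33.7%, adjusted exact p = 0.0237) and AAATAA (57.3% and 41.6%, adjusted exact p = 0.0360), so the direction for such words turned with base content. The difference in the GA repeat was 26.3 points in these windows (adjusted exact p = 2.29e-07) and in the CA repeat 26.0 points (adjusted exact p = 2.01e-07). GAGCGA joins GA to a CG step, and the related word AGCGAG was found as well (45.1% and 26.4%, adjusted exact p = 0.00480).

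The peaks were often close to other MSL2 peaks. Another peak of any list lay within 5 kb for 307 of the 559 (54.9%; 50.8 to 59.0), compared with 30.1% of promoter peaks (Fisher's exact test, adjusted exact p = 5.74e-22 over 4 tests of width and neighbours). For X peaks away from promoters the share was 65.2%, a difference of -10.3 points (adjusted exact p = 0.0171), and this difference was not past the threshold with a limit of 1000 bp from TSSs (-5.89 points, adjusted exact p = 0.261). The density of peaks was 5.88 per Mb of autosomal sequence beyond 500 bp of a TSS and 11.1 per Mb of such X sequence. A second peak away from promoters was within 5 kb of 190 peaks, a promoter peak within 5 kb of 169 (30.2%), and both within 5 kb of 57. Linked in steps of at most 5 kb, 190 peaks formed 79 clusters, of which 57 had 2 peaks, 16 had 3, 3 had 4, 2 had 5 and 1 had 6. Peaks of a cluster are neighbours of each other. The exact tests above treat peaks as independent and do not allow for this, and neighbours were not tested with 1 peak kept per 10 kb. The median distance to the nearest promoter peak was 12650 bp.

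In width, the peaks resembled the other classes. They were 150 to 4763 bp wide with a median of 233 bp, against 234.5 bp for promoter peaks and 212 bp for X peaks. At least 500 bp was reached by 58 (10.4%), 11.9% of promoter peaks (adjusted exact p = 0.370) and 13.7% of X peaks (adjusted exact p = 0.285). The lists contain no measure of peak height, so width is the only size that can be compared.

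**Figure D4:**
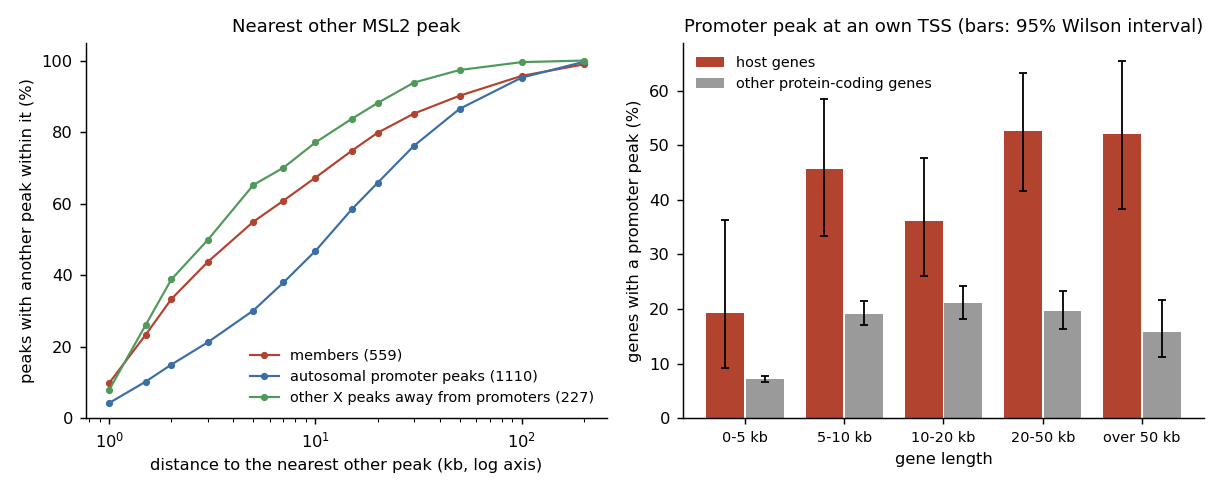
Left, cumulative share (%) of peaks that have another MSL2 peak within the distance on the x axis (kb, log axis). Right, share (%) of autosomal protein-coding genes with a promoter peak at one of their own TSSs, by gene length, for genes that host a peak away from promoters and for other genes (bars with 95% Wilson intervals). Within 5 kb the curves read 54.9% for members and 30.1% for promoter peaks, and in genes over 50 kb a promoter peak is found in 52.1% of hosts and 15.8% of other genes.

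At least 1 gene spanned 415 of the 559 peaks (74.2%), and 31 peaks lay in more than 1 gene. The hosts were 307 genes, 286 of them protein-coding and 21 noncoding. A single peak was found in 233 genes and 2 peaks in 43, and 11 genes held 5 or more. Long genes were hosts more often, from 0.348% of protein-coding genes up to 5 kb in length to 20.2% of those over 50 kb. Hosts also tended to have a promoter peak. One of their own TSSs had a peak in 124 of 286 protein-coding hosts (43.4%; 37.7 to 49.2) and in 9.91% of the other 11463 autosomal protein-coding genes. This held within classes of length. The shares were 45.6% of hosts and 19.2% of other genes at 5 to 10 kb, 36.1% and 21.1% at 10 to 20 kb, 52.6% and 19.6% at 20 to 50 kb, and 52.1% and 15.8% over 50 kb. Up to 5 kb, where there were 31 hosts, they were 19.4% and 7.11%. These shares are a description with no test, and the number of annotated TSSs per gene was not taken into account.

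The gene with the most peaks away from promoters, ranked first by summed width, was tara (FBgn0040071, chr3R:16225651-16260329). It encodes Taranis, a regulator of the trithorax group. Its 8 peaks all lay in the first intron, at 3.57, 7.10, 10.2, 15.5, 19.1, 25.0, 26.4 and 28.7 kb from the first TSS, and they were 170 to 2787 bp wide. Peaks of 2787 and 2339 bp in this intron were among the 10 widest of all 559. A promoter peak lies between them, at the second TSS of tara. Of the 8 peaks, 5 held the GA repeat, 5 the CA repeat and 1, at 25.0 kb, neither.

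InR (FBgn0283499, chr3R:21570248-21619321) had 8 peaks as well. They lay at 2.97, 5.96, 12.4, 13.7, 14.6, 27.9, 36.4 and 39.1 kb from its first TSS, the first 6 in a first intron, the next in intron 2 and the last in a coding exon. The 6 in the first intron all held the GA repeat, among them the peak with the 21 bp run printed above, and the last 2 did not. Akt, the kinase downstream of the receptor, had 1 peak. No other gene of the 19 insulin and TOR signalling genes counted had one, and the symbol Tor was not matched to a gene. Hosts were thus 10.5% (2.94 to 31.4) of a list with a median gene length of 4731 bp. Of all autosomal protein-coding genes 2.43% were hosts, with 0.348% up to 5 kb in length and 4.61% at 5 to 10 kb.

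Genes of the ecdysone response formed another group with many peaks. Ecdysone is the steroid hormone that triggers molting and metamorphosis at the end of larval life, and its receptor activates a small set of early genes that encode transcription factors. Of 25 genes of this response and of other nuclear receptors, 10 had at least 1 peak in their body, and 33 peaks lay in them. Eip74EF had 8 peaks, all in introns, at 7.24 to 55.4 kb from the first TSS, and 6 of them held the GA repeat. Eip75B, which encodes the nuclear receptor E75, had 5 peaks at 34.9 to 99.8 kb, and all 5 held the GA repeat. EcR, the gene of the ecdysone receptor itself, had 5 intronic peaks at 23.5 to 48.4 kb, of which 4 held the GA repeat and all 5 the CA repeat. The nuclear receptor gene ftz-f1 had 3 peaks, Kr-h1, which encodes a zinc-finger factor of the juvenile hormone response, 3 and E23, an ABC transporter gene, 3. Eip78C and the coactivator gene tai had 2 each, and Hr38 and Hr39 had 1 each. For comparison, 2.43% of all autosomal protein-coding genes were hosts. The genes of this list are long, with a median length of 22386 bp against 2102 bp for all autosomal protein-coding genes, and of protein-coding genes of 20 to 50 kb 13.5% were hosts.

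**Figure D5:**
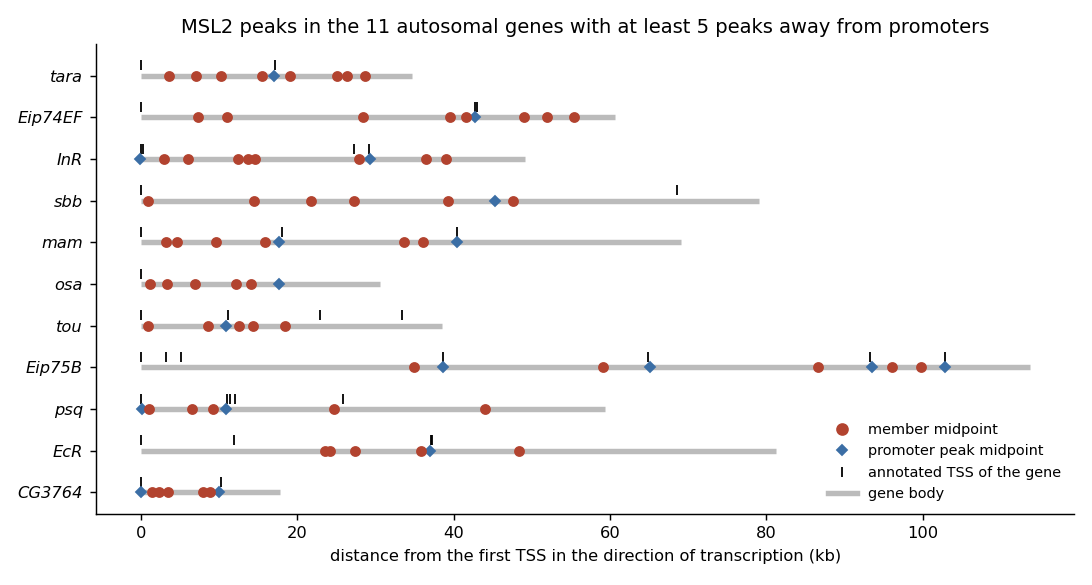
Positions of peaks in the 11 autosomal genes with at least 5 peaks away from promoters, in kb from the first annotated TSS in the direction of transcription. Circles are peaks away from promoters, diamonds are promoter peaks at a TSS of any gene, ticks are TSSs of the gene and grey bars the gene body. The 8 peaks of tara lie between 3.57 and 28.7 kb, and the 5 peaks of Eip75B between 34.9 and 99.8 kb.

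Several chromatin regulators were also among the genes with the most peaks. osa, which encodes a subunit of the Brahma remodelling complex, had 5 peaks at 1.11 to 14.1 kb, and psq, which encodes the BTB protein Pipsqueak that itself binds GA-rich DNA, had 5 at 1.08 to 44.1 kb. tou, the gene of a chromatin remodelling factor, had 5 first-intron peaks at 0.916 to 18.4 kb. sbb, the gene of the corepressor Scribbler, had 6 at 0.860 to 47.6 kb. Gug, which encodes the Atrophin corepressor, had 4, all in the first intron, within 5585 bp of each other. HmgD, the gene of a high-mobility-group protein, had 4, which are shared in part with the overlapping gene HmgZ. Of the 28 genes of the Polycomb and trithorax groups, 7 had peaks in their bodies. Of the 24 peaks in them, 18 lay in tara, osa and psq. Peaks between genes were not counted, such as those between Su(z)2 and CG13323 and between CG13321 and Psc. The list has a median gene length of 8848 bp, and 4.61% of protein-coding genes of 5 to 10 kb and 9.18% of those of 10 to 20 kb were hosts. Trl, the gene of GAGA factor, had 2, both in introns and both with the GA repeat.

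The lists of the other pathways had peaks in 2 to 4 of the genes counted. mam, the gene of the Notch coactivator Mastermind, had 6 peaks, all in intron 2, at 3.17 to 36.1 kb, of which 4 held the GA repeat, and spen had 2 and numb 1 of the 18 genes of the Notch pathway. In the EGF receptor and MAPK pathway, 4 of 18 genes had peaks, with 2 in the inhibitor gene sty and 1 each in the ETS factor genes aop and pnt and in the ligand gene spi. In the Hippo pathway list the cadherin gene ds and the kinase gene wts had 1 each (2 of 11 genes). Tgi, which is not on this list, had 3. In the Wingless pathway list the co-receptor gene arr and the inhibitor gene nkd had 1 each (2 of 16). Hosts were 16.7% of the Notch list, 22.2% of the EGF receptor list, 18.2% of the Hippo list and 12.5% of the Wingless list. Median gene lengths were 6119.5, 14729, 16995 and 13310 bp in that order. Of all protein-coding genes of 5 to 10 kb 4.61% were hosts, and of those of 10 to 20 kb 9.18%. The Wilson intervals were wide, widest for the Hippo list (5.14 to 47.7), and the part of gene length was not tested. shn, which encodes a zinc-finger factor of Dpp signalling, had 4, and CG3764 had 5, spread over 7400.5 bp of its first intron. CG12054 had 3. Of 50 homeobox genes, 7 had peaks, 2 of them in Antp and 1 each in Ubx, abd-A and Abd-B, all in introns of the Hox genes. That is 14.0% (6.95 to 26.2) of a list with a median gene length of 12617 bp, near the shares of hosts among all protein-coding genes of 10 to 20 kb (9.18%) and of 20 to 50 kb (13.5%). None of the 62 cytosolic ribosomal protein genes had a peak away from a promoter (0 of 62, Wilson upper limit 5.83%), although 22 of them had a promoter peak. These genes are short, with a median of 1360 bp. In all, the 11 genes with 5 or more peaks held 66 peaks, 63 of them in introns and 40 in first introns, and 43 held the GA repeat and 46 the CA repeat.

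The 144 intergenic peaks lay in gaps with a median length of 10889 bp, and 39 lay in gaps of more than 20 kb. The neighbouring genes were transcribed away from the peak on both sides for 37, in the same direction for 66 and towards the peak for 30. The remaining 11 had an annotated gene on 1 side only, because they were next to an end of an assembled arm.

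The cluster with the most peaks was at the end of a chromosome arm. The last 6 kb of 3R contained 6 peaks, at chr3R:32073578-32078776, past the last annotated gene, Map205. Their midpoints were 725, 1766.5, 2653, 3725, 4704 and 5614.5 bp from the end of the arm and thus 886.5 to 1072 bp apart. The windows around them resemble each other. Each shared between 72.9% and 99.7% of its words of 20 bp with each of the others, and all 6 overlapped annotated fragments of the retrotransposon invader4. Near the distal end of 2R, 2 peaks (chr2R:25258605-25260285 and chr2R:25260899-25261051), 27491.5 and 25961.5 bp from it, shared 66.2% and 66.5% of their words of 20 bp with these copies. No other peak of any list on the chromosomes analysed shared such a word. Tandem arrays of this kind next to the telomere are known as telomere-associated sequence. All 6 windows on 3R held the GA repeat with 1 mismatch and none the CA repeat, and the longest unbroken GA run in each was 5 bp. How reads that match several copies were assigned is not stated, so the number of peaks in the array and the number of bound copies cannot be told apart.

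Annotated transposable elements overlapped a smaller share of peaks than of flanks, by a difference close to the threshold. Flanks were not filtered for whether reads can be placed there, and the part of read placement in this difference was not tested. An annotated element overlapped the 500 bp window of 12 peaks (2.15%) and of 36 of 869 flanks (4.14%; Fisher's exact test, two-sided, p = 0.0497, not adjusted). Without the 6 peaks at the end of 3R, the difference was -2.95 points in place of -2.00 (exact p = 9.38e-04), with flanks 5 kb away it was -3.40 points (exact p = 0.00130), and in windows of 200 bp with all peaks it was -1.74 points (exact p = 0.0824). Besides the 6 peaks with invader4, 1 peak each overlapped fragments of R1A1 and rooA, of R1, of Tirant, of roo, of H and of HeT-A.

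The 4 large arms held 110 (2L), 147 (2R), 147 (3L) and 152 (3R) peaks, which is 5.47 to 6.80 per Mb of sequence beyond 500 bp of a TSS. No difference between the share of peaks and the share of promoter peaks on an arm passed the test (smallest adjusted exact p = 0.111, for 3L with 26.3% of peaks and 21.2% of promoter peaks). With a limit of 1000 bp from TSSs, that of 3L did (7.86 points, adjusted exact p = 0.00674). Chromosome 4 had 3 peaks, 2.53 per Mb. They were 736 bp from the TSS of dati, which encodes a zinc-finger factor, in intron 2 of the homeobox gene zfh2, and 50222 bp from the nearest TSS, that of Cadps, in a window that overlaps a fragment of the telomeric retrotransposon HeT-A.

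The widest peaks were a mixed group. The first was an intergenic peak of 4763 bp (chr2L:12003013-12007775) between the divergent genes Hacd1 and Rh5, the second of which encodes a rhodopsin of the eye. Only 3695 bp of intergenic sequence separate Rh5 from lncRNA:CR44588, and a peak of 2745 bp has its midpoint there. Others were at lncRNA:CR45424 (2592 bp), lncRNA:CR45297 (1904 bp), CG43245 (1887 bp), Dp (1730 bp), the gene of the partner of E2F, and spen (1692 bp). Of the 29 peaks at least 1000 bp wide, 11 were intronic and 11 intergenic, and 14 held the GA repeat in the central 500 bp, against 309 of 530 narrower peaks (58.3%). Counted over the whole peak, 22 of the 29 held it. Since the distance rule used midpoints, 11 of these 29 wide peaks covered a TSS, and none of the narrower peaks did.

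A peak of 2935 bp covered coding sequence of msl-2 itself (chr2L:3463289-3466223), 69644 bp from any other peak, and it was the widest in a coding exon. The gene lies on the minus strand at chr2L:3462218-3466112, so the peak also ran over its 5′ end and TSS, and the Dp peak (chr2R:13222211-13223940) likewise ran over the start of Dp at 13222433. These were the only 2 of the 28 peaks with their midpoint in a coding exon that covered a TSS. The larvae carried msl-2 sequence a second time in the UAS-msl-2::3Flag construct, whose part in this peak was not tested. Other wide peaks in coding exons were at Dp, at nsl1 (715 bp), which encodes a subunit of the NSL complex that shares the acetyltransferase MOF with the MSL complex, at Sdb (501 bp) and at Ubi-p63E (354 bp), a gene of ubiquitin repeats in tandem. The 8 peaks in 3′ UTRs included Ppa, an F-box gene (349 bp), chm, which encodes a MYST-family acetyltransferase (336 bp), the overlapping genes CG42837 and Lipt1 (278 bp), scny (268 bp) and tio (255 bp). Besides CR41519 at 96970 bp and Cadps, the peaks farthest from any TSS were a pair at 34950 and 32457.5 bp from CG43245, which lie in a gap of 75047 bp between NijA and CG43245, and 1 at 34908.5 bp from CG14464, in a window soft-masked as repeat over 96% of its length. The CR41519 peak is likewise 91.4% soft-masked. At CG43245 both peaks held both repeats.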

How the data were processed

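The 3 peak lists of MSL2 were deposited for the whole series. Tools in the submitters' processing notes are bedtools, MACS2 2.1.1.20160309.0 and Bowtie2 2.3.0.1 and builds are dm6 and BDGP6, with no role or order. The sources used here do not give libraries, control, threshold, pooling or the treatment of reads that map to several places. The deposited score column held the single value 0 in all 1685 rows and ranked nothing. Of these rows, 16 on Y and unplaced scaffolds were left out, and of the HAS list 159 of 170 rows were distinct.

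Starts were converted to 1-based dm6 coordinates. Genes came from Ensembl release 115 (BDGP6, annotation 54) without transposable elements, and bases from the RefSeq genome of the same assembly. Gene parts were assigned by midpoint, in the order 5′ UTR, 3′ UTR, coding exon, noncoding exon, intron, intergenic. Fisher's exact test, two-sided, was used for shares, with Benjamini-Hochberg adjustment within the 27 word tests (9 words), all 2080 words of 6 bp, 4 tests of width and neighbours, 6 gene parts and 5 arms. Intervals are 95% Wilson intervals. All tests treat peaks as independent and describe placement in these lists, not variation between animals. Flanks come from the surroundings of the same peaks. Scripts ran in Python 3.11.15 with NumPy 2.4.6, SciPy 1.17.1 and Matplotlib 3.10.9. The search over words of 6 bp was tested on flank windows split at random into groups, without and with a word planted in part of them.

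Members, words and gene lists were chosen with earlier results of these data known. Of the gene list symbols, 5 were not matched (Tor, Dl, d, ban and calypso). Named were the 15 genes with the most peaks in their bodies, the 10 widest peaks, the 5 farthest from a TSS, all on chromosome 4, up to 5 widest each in coding exons and 3′ UTRs, the longest runs of GA (8) and CA (4), up to 3 genes per list, and the 3 peaks on either side of the distance limit. Other named genes, the AACCGGTT sites and the arrays at arm ends were chosen after their values were seen. Sequences on 1 chromosome arm and in UTRs are not printed.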

Additional observations from a re-analysis of the deposited data

How the results depend on the processing

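Each test was repeated with a single choice changed, 214 repeats in all: 0 mismatches in the repeats, windows of 200 bp, a limit of 1000 bp from TSSs (402 peaks), 1 peak per 10 kb (416 peaks), flanks 5 kb away, and limits of 300 bp in width or 10 kb between peaks. Windows of 45 to 52% GC and leaving out the 6 peaks at the end of 3R were added after seeing the data. The direction and side of the threshold held in 176 of them. The GA and CA repeats against flanks, the GA repeat against promoter peaks, neighbours against promoter peaks, and the intergenic, coding exon and 3′ UTR shares against X held in every one run, though the GA repeat with smaller differences with 0 mismatches (10.9 points against flanks, 4.85 against promoter peaks).

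Of the others, the CA repeat against promoter peaks fell to 4.07 points with the 1000 bp limit and 5.75 with 1 peak per 10 kb, neighbours against X to -5.89 points and elements in 200 bp windows to -1.74, all no longer past the threshold, while the share on 3L rose to 7.86 points with the 1000 bp limit (adjusted exact p = 0.00674). Words of 6 bp went from 894 to 69 in windows of 45 to 52% GC, where fewer windows were tested. The count was within 1.5 times otherwise.

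Signs turned mostly where no test passed. Against X peaks with 0 mismatches the GA repeat gave -2.15 points and the CA repeat -3.28, and the CA repeat -1.45 by GC. Noncoding exons gave 0.0111 with 1 peak per 10 kb, and the share on 2R 0.186 without the 3R end. The A tract gave 13.2 points against flanks by GC (adjusted exact p = 0.0126), but -14.2 in 200 bp windows (adjusted exact p = 9.82e-07). It gave 3.71 (0 mismatches) and 0.612 (GC) against promoter peaks and -0.0276 (200 bp) against X. GGAAGGAA gave -0.0915 (200 bp) and -0.423 (1 per 10 kb) against flanks and -1.01 (GC) against X. CCAACCAA gave 0.676 (0 mismatches) against flanks, 1.33 (0 mismatches), 0.417 (200 bp), 0.508 (1 per 10 kb) and 1.57 (GC) against promoter peaks, and 2.35 (1 per 10 kb) against X. The DRE gave 0.358 (200 bp) and 0.302 (GC) against X. The AP-1 word gave -0.584 (200 bp) and -0.803 (5 kb) against flanks and -2.14 (200 bp) against X. The causes were not tested. No paired analysis was possible because the lists name no library or replicate.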
